A study of Mus musculus with 8 samples.

Results

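The canonical histone genes are the genes with symbols of the form Hist1h to Hist4h, which make the histones of the nucleosome (H2A, H2B, H3 and H4) and the linker histone H1. They were chosen by symbol alone, with the row of most counts kept where a symbol had several, and made up 68 of the 23366 gene symbols in the count table. Of these, 59 had 50 or more counts in total over the 8 libraries, namely 4 of 6 H1 genes, 15 of 18 H2A genes, 16 of 19 H2B genes, 12 of 12 H3 genes and 12 of 13 H4 genes. The same 59 passed the filter on low counts and were tested, and 9 were not, among them Hist1h2aa, which had no count in any library. By symbol, 54 members belong to the Hist1 cluster, 10 to Hist2, 3 to Hist3 and 1 to Hist4. In the GRCm38 annotation these clusters lie on chromosomes 13, 3, 11 and 6. The libraries were made from RNA of C57BL/6 mouse embryonic fibroblasts (MEFs), which are connective tissue cells cultured out of embryos, at passages 3 to 5. The 4 groups of 2 libraries each were wild-type (WT) cells fed (0 h), WT cells starved (12 h), cells labelled Kdm3a knockout (KO) fed (0 h) and KO-labelled cells starved (12 h). Fed cells grew in DMEM with 10% FBS, and starved cells were moved to DMEM without glucose and with 10% dialyzed FBS. No group was kept fed for 12 h, so loss of glucose, the dialyzed serum and the time in culture cannot be told apart, and "starved" below means all of them. The sources used here do not give the knockout allele, the number of embryos behind each label or whether replicates were separate cultures. The p-values therefore measure the spread between these libraries alone, which may be technical. Kdm3a codes for a demethylase of lysine 9 on histone H3, and per its title the series asked about this enzyme in the control of autophagy.

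Canonical histones are made mainly in S phase, when new DNA has to be packed into nucleosomes, and each protein is coded by many near-identical genes in clusters. Their mRNAs usually end in a conserved stem-loop in place of a poly(A) tail. The stem-loop is bound by SLBP, NPAT drives their transcription at the start of S phase, and most of the mRNA is degraded when DNA synthesis stops. Some histone genes also make polyadenylated transcripts that run on past the stem-loop, a form described in cells that have left the cell cycle. Replacement histones such as H3.3 and H2A.Z are coded outside the clusters and are made throughout the cell cycle.

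The library totals ran from 38407526 to 53602297 counts. Levels are given in CPM, counts per 1000000 counts of the scaled library. Kdm3a had 56.1 and 56.4 CPM in fed WT libraries against 55.2 and 55.4 in fed KO-labelled ones, so the labels did not separate by this gene in fed cells. In starved cells it was at 176 and 185 CPM in WT and at 65.4 and 66.7 in KO-labelled libraries. Xist was at 869 to 1370 CPM in the 4 KO-labelled libraries and at most 1.54 CPM in the WT ones, while the Y-linked Ddx3y was at 27.3 to 37.9 CPM in WT and at most 0.0222 in KO-labelled libraries. Genotype and the sex of the cells therefore cannot be told apart in any comparison between the labels. The summed level of 12 fibroblast markers was 11592 to 21275 CPM. In fed cells 6 of the 12 were higher and 5 lower in KO-labelled than in WT libraries (50% and 41.7%). Over all genes these shares were 34.5% and 39.8%. The marker differences ran both ways, from -4.53 to 6.46 in log2, and the counts were the same in starved cells. Thy1 was at 4.72 to 6.62 CPM in the KO-labelled libraries against 99.3 to 166 CPM in the WT ones. Of the 13 macrophage and blood markers, 5 were tested. With starvation in the KO-labelled cells 3 of the 5 rose and 1 fell, where 39.4% of all genes rose and 40.3% fell. In those cells the list's sum went from 21.7 and 22.3 CPM to 53.7 and 54.7 CPM. The 8 endothelial markers summed to 55.5 and 53.2 CPM in starved WT libraries, nearly all of it Kdr, and to at most 7.03 CPM in the others. The 8 neural markers, of which Sox10 and Snap25 had no count, summed to 251 and 252 CPM in fed WT, 99.7 and 108 CPM in starved WT and between 59.5 and 60.3 CPM across all 4 libraries labelled KO. The 9 epithelial markers summed to 25.6 and 25.7 CPM in fed WT, 21.4 and 22.3 CPM in starved WT, 2.74 and 2.33 CPM in fed KO-labelled and 4.59 and 4.50 CPM in starved KO-labelled libraries. The part of these marker differences in the histone results was not tested.

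The 3' stem-loop is shown first, since it is the sequence that sets these mRNAs apart. On the sense strand of GENCODE M21 transcripts (GRCm38), a stem-loop of 16 bases was found in 42 of the 68 members and in 14 of 21810 other protein-coding genes, or 0.0642%. The transcript of each of the other 26 members holds no match, which says only that these letters are not in the annotated transcript. In the stretches below the capitals mark the stem-loop, with up to 7 bases of transcript on either side.
Hist1h1c: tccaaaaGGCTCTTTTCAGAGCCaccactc
Hist3h2a: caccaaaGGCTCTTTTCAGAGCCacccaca
Hist1h3c: aaaaaaaGGCTCTTTTAAGAGCCacctaag
Hist4h4: ccacaaaGGCCCTTTTCAGGGCCcacaaag
Hist1h4j: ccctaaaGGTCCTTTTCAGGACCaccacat
Hist1h4a: aaccaaaGGCCCTTCTCAGGGCCgcccaca
The form of Hist1h1c and Hist3h2a occurred in 26 members, of the H1, H2A, H2B and H3 classes. That of Hist1h3c occurred in 6, of the H1, H2B and H3 classes. The 3 forms on the last 3 lines were found only in H4 genes, in 7, 2 and 1 members. The annotated transcript ran on for 100 bases or more past the stem-loop in 21 members, for example by 840 bases in Hist1h1c, 1643 in Hist3h2a and 2445 in Hist4h4, and ended within 100 bases of it in 21. Of the 10 members with most counts, which took 65.9% of all member counts, 4 ran on, 4 had no stem-loop in the transcript and 2 (Hist2h2aa1 and Hist2h2aa2) ended near it. The sources used here do not say whether the libraries were selected for poly(A) tails, so these levels are of the histone RNA that the libraries captured and may not follow the stem-loop form.

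The summed level of the histone genes fell with starvation under both labels, and by more in the KO-labelled cells. The sum over the 68 members was 167 and 146 CPM in fed WT libraries against 84.8 and 87.9 CPM in the starved ones. It was 229 and 224 CPM in the fed KO-labelled libraries and 37.6 and 39.6 CPM in the starved ones. No 2 groups overlapped, the fed KO-labelled libraries being the highest and the starved KO-labelled ones the lowest. In bulk RNA, fewer cells making a transcript and less of it in each cell cannot be told apart. CPM here is not corrected for gene length, so it compares a gene or a class between libraries and not genes with each other.

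The classes did not move alike. The 6 linker H1 genes summed to 24.0 and 25.8 CPM in fed WT, 3.53 and 4.0 in starved WT, 82.6 and 81.1 in fed KO-labelled and 2.62 and 1.36 CPM in starved KO-labelled libraries. The 19 H2B genes summed to 66.5 and 57.4, 21.1 and 21.9, 86.1 and 81.0, and 4.03 and 4.78 CPM in the same order. Both classes were thus highest in the fed KO-labelled and lowest in the starved KO-labelled libraries. The 18 H2A genes spanned less, at 41.3 and 29.6, 32.1 and 24.8, 34.7 and 36.5, and 19.4 and 19.7 CPM. For H3 the sums were 11.3 and 11.8, 10.3 and 14.7, 9.71 and 11.2, and 2.73 and 3.89 CPM, and for H4 they were 23.6 and 21.6, 17.7 and 22.5, 15.4 and 14.5, and 8.76 and 9.85 CPM. The fed and starved WT libraries overlapped for H2A, H3 and H4 and did not for H1 and H2B, while the fed and starved KO-labelled libraries did not overlap for any class. As shares of histone counts, H1 went from 36.1% and 36.2% in the fed to 6.97% and 3.44% in the starved KO-labelled libraries, and H2A from 15.2% and 16.3% to 51.7% and 49.7%. In the starved KO-labelled libraries much of the H2A sum came from genes outside the Hist1 cluster. Among these were Hist3h2a (7.27 and 5.76 CPM) and Hist2h2aa1 (4.21 and 4.31 CPM). Of the 15 H2A genes tested, 11 fell with starvation in those cells, with a median log2 fold change of -2.29.

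**Figure D1:**
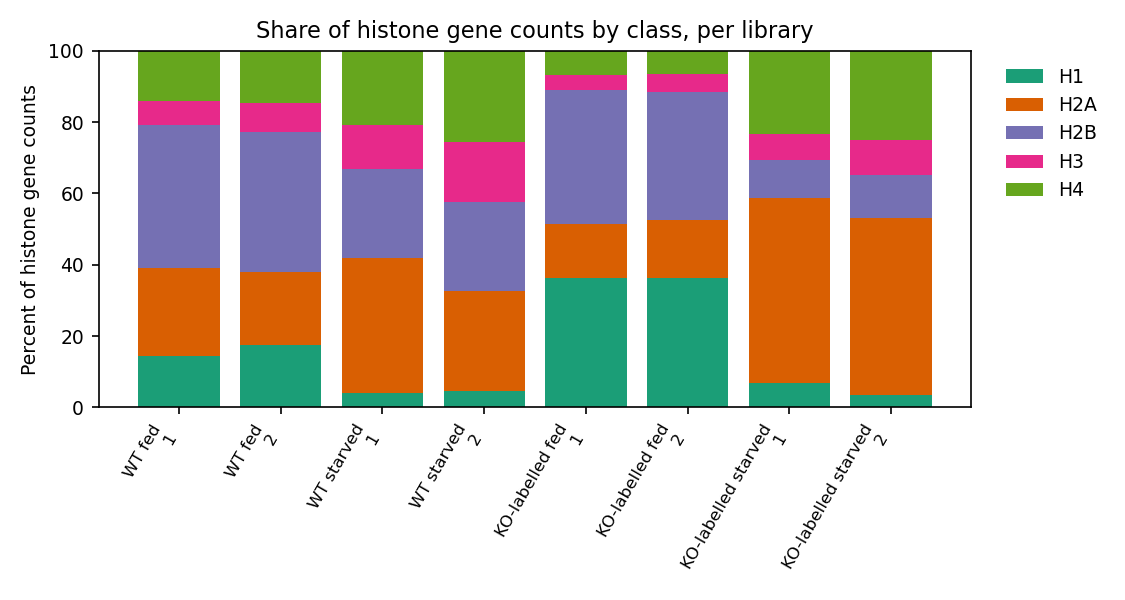
Share of the counts of the 68 histone genes that fell in each class, in percent (vertical axis), for each of the 8 libraries (horizontal axis). H1 holds about 36.1% of the counts in the fed KO-labelled libraries and at most 6.97% in the starved ones, where H2A holds 49.7% or more.

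With starvation in WT cells the decrease was mainly one of the H2B genes. By edgeR's quasi-likelihood test with Benjamini-Hochberg adjustment over 14418 genes, at an adjusted p under 0.05, 16 of the 59 tested members fell and 5 rose. Over all genes tested, 44.8% were called lower and 36.7% higher, so both shares among the members (27.1% and 8.47%) were under the background. The median log2 fold change was -0.51 over the members and -0.17 over all genes. The shares were other ones with a stricter filter. With at least 5 CPM in 2 libraries, 7 of the 10 members left fell and 1 rose. On that filter 5060 of 11190 genes were called lower and 4866 higher. Members such as Hist1h1c and Hist1h2bg reached 5 CPM in fed libraries only, which favours falls. These counts therefore do not place the members above the background. Of the 16 that fell, 11 were H2B genes, out of 16 H2B genes tested, with 1 of 4 H1, 1 of 15 H2A, 2 of 12 H3 and 1 of 12 H4 genes. Scaling by library totals moved the median of all genes by -0.46 and left 1 member higher and 25 lower, and the share of higher calls among all genes called went from 45.0% to 28.2%, so 4 of the 5 rises were not called on that scale.

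Hist1h1c (H1.2), the linker gene with most counts, carried the H1 decrease. It was at 22.3 and 24.9 CPM in the fed and 2.09 and 1.64 CPM in the starved WT libraries, a log2 fold change of -3.66 (SE 0.15, adjusted p = 9.72e-16 by edgeR), or 12.7-fold lower. The starved libraries were far below the fed ones. The other 3 linker genes tested were not called: Hist1h1d was at 0.60 and 0.26 CPM fed and 0.43 and 1.00 starved, Hist1h1e at 0.69 and 0.31 fed and 0.71 and 1.21 starved, and Hist1h1b at 0.39 and 0.19 fed and 0.31 and 0.03 starved. The groups overlapped in Hist1h1d and Hist1h1b, and in Hist1h1e both starved libraries were above both fed ones (0.92, SE 0.56).

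Among the H2B genes, Hist1h2bc was at 30.6 and 30.0 CPM fed and 9.21 and 8.51 starved in WT (-1.77, SE 0.09), and Hist1h2bg at 6.86 and 6.70 fed and 1.93 and 2.63 starved (-1.57, SE 0.19). Hist2h2be, on the Hist2 cluster, was at 3.27 and 2.73 CPM fed and at 0.25 and 0 CPM starved (8 and 0 counts), a log2 fold change of -4.59 (SE 0.54, adjusted p = 8.39e-08 by edgeR). This was the most negative of any member with all libraries, and became -3.52 without starved WT replicate 2, the library at 0. Hist1h2ba, a testis-type H2B, was at 0.97 and 0.91 CPM fed and 0.06 and 0.36 starved (-2.13, SE 0.60), a call that was lost without starved WT replicate 1 (-1.29). In each of these 4 genes both starved libraries were below both fed ones.

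The H2A genes of the Hist1 cluster had log2 fold changes from -1.12 (Hist1h2ak, SE 0.76) to 0.18 (Hist1h2ag) in WT. The second most negative was Hist1h2af (-0.76, SE 0.44), at 1.02 and 1.10 CPM fed and 0.74 and 0.51 starved, with both starved libraries below both fed ones. None of the Hist1 H2A genes was called by edgeR; over all 15 H2A genes 1 had an unadjusted p under 0.05 and 1 was called with DESeq2, both times counting Hist3h2a. In Hist1h2ae, for instance, the fed libraries were at 3.98 and 2.13 CPM and the starved ones at 3.07 and 3.03 CPM. Fed WT replicate 1 was above replicate 2 in Hist1h2ae and in most of its cluster, and this spread limits what could be called. The only H2A gene to fall was Hist3h2a, from 5.51 and 5.91 to 1.81 and 1.30 CPM (-1.87, SE 0.20, adjusted p = 1.83e-08 by edgeR).

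H3 and H4 genes went both ways. Hist2h3c1 was at 2.06 and 1.96 CPM fed and 0.58 and 0.70 starved (-1.65, SE 0.32), and Hist2h3c2 at 1.51 and 1.91 fed and 0.83 and 0.85 starved (-1.02, SE 0.33). Both code for canonical H3 in the Hist2 cluster and fell (Hist2h3c2 not without fed WT replicate 2, at -0.84), whereas 2 H3 genes of the Hist1 cluster rose. Hist1h3i was at 0.79 and 0.65 CPM fed and 1.50 and 2.12 starved (1.33, SE 0.40), and Hist1h3h at 0.81 and 0.91 fed and 1.44 and 2.09 starved (1.04, SE 0.39), a call lost without starved WT replicate 2 (0.82) or either fed WT replicate (0.96 and 1.12). In H4, Hist1h4i fell from 11.6 and 11.2 to 5.19 and 7.39 CPM (-0.85, SE 0.15). Hist1h4m and Hist1h4n rose by 0.93 (SE 0.40) and 1.17 (SE 0.42) and their counts were nearly the same, at 0.97 and 0.86 CPM in fed replicate 1 and at 1.57 in both in starved replicate 1. Both calls were lost without fed WT replicate 2 (0.56 and 0.74), without starved WT replicate 1 (0.86 and 1.11) and with library totals (0.47 and 0.72). That of Hist1h4m was also lost with DESeq2 (1.00), summed rows (0.94) and the replicate block (0.94), among other alternatives. Hist4h4, the H4 gene that stands alone on chromosome 6, was at 5.49 and 3.61 CPM fed and 4.70 and 9.69 starved (0.66, SE 0.24, adjusted p = 0.0153 by edgeR), with overlapping groups. That call was lost without starved WT replicate 2 (0.12), without fed WT replicate 2 (0.39), with DESeq2 (0.72) and with library totals (0.20). Of the 5 rises, that of Hist1h3i passed in every alternative that tested it, and each of the other 4 was lost in at least 2 alternatives. The number of members called higher ranged from 1 (without fed WT replicate 2) to 8 (without starved WT replicate 1), and was 3 without starved WT replicate 2.

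In the KO-labelled cells starvation lowered nearly all of the histone genes, in every class. Of the 59 members tested, 49 fell and 1 rose, that is 83.1% and 1.69%, against 40.3% lower and 39.4% higher over all genes tested. The median log2 fold change was -2.40 over the members and -0.02 over all genes. All 4 H1 genes and all 16 H2B genes tested fell, as did 11 of 15 H2A, 8 of 12 H3 and 10 of 12 H4 genes, with class medians of -4.57, -3.71, -2.29, -1.55 and -1.99 for H1, H2B, H2A, H3 and H4. Scaling by library totals, which moved the median of all genes by -0.26 and the share of higher calls from 49.4% to 37.0%, left 50 members lower and 1 higher.

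Hist1h1c was at 77.0 and 76.2 CPM in the fed and 2.11 and 1.15 CPM in the starved KO-labelled libraries, a log2 fold change of -5.58 (SE 0.12, adjusted p = 5.04e-20 by edgeR), or 47.9-fold lower, the most negative of any member. Hist1h1d (H1.3) went from 3.27 and 3.68 CPM to 0.16 and 0.11 CPM (-4.68, SE 0.44). Hist1h1e (H1.4) went from 1.62 and 0.82 CPM to 0.35 and 0.06 CPM (-2.63, SE 0.59), a value that was -1.79 without starved replicate 2, -2.03 without fed replicate 1 and -4.37 without starved replicate 1. Hist1h1b (H1.5) had 57 counts over the fed and 2 over the starved libraries, a ratio of 24.9 with a 95% counting interval of 6.60 to 211. So the linker genes fell together here, where in WT the decrease was called in Hist1h1c only.

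Hist1h2bc was at 44.5 and 44.3 CPM fed and 1.17 and 1.70 starved (-4.93, SE 0.11, adjusted p = 4.86e-20 by edgeR), and Hist1h2bg at 9.93 and 9.09 fed and 0.20 and 0.49 starved (-4.73, SE 0.24). Hist1h2bq and Hist1h2br had identical counts in all 8 libraries, at 4.76 and 4.25 CPM fed and 0.42 and 0.43 starved (-3.39, SE 0.26), and are in effect 1 measurement entered under 2 symbols. Hist1h2bp had 175 counts fed and 6 starved, a ratio of 25.5 (95% counting interval 11.5 to 70.5), and Hist1h2ba 106 and 4, a ratio of 23.2 (8.80 to 86.7). Hist2h2be went from 3.01 and 2.98 CPM to 0.80 and 0.32 CPM (-2.45, SE 0.36), the least negative of the H2B genes with all libraries, and -3.20 without starved replicate 1. That of Hist1h2bg was -5.55 without starved replicate 2. Every H2B gene named here had both starved libraries under both fed ones.

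The 11 H2A genes that fell did so within a narrow range, from -1.94 (Hist1h2ab) to -2.74 (Hist1h2ah). Hist1h2ae, at 2.07 and 2.52 CPM fed and 0.38 and 0.68 starved, had a log2 fold change of -2.08 (SE 0.33). The 4 H2A genes with no call were Hist1h2ak (-0.63, SE 0.90), Hist2h2aa1 (-0.02, SE 0.17), Hist2h2aa2 (0.07, SE 0.16) and Hist3h2a (0.22, SE 0.15). Hist2h2aa1 was at 4.39 and 4.27 CPM fed and 4.21 and 4.31 starved, and Hist3h2a at 5.75 and 5.39 fed and 7.27 and 5.76 starved. The fed and starved libraries overlapped in Hist2h2aa1, and in Hist3h2a both starved libraries were above both fed ones.

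Among H3 genes, Hist2h3c1 fell from 2.27 and 2.45 to 0.29 and 0.23 CPM (-3.19, SE 0.33) and Hist1h3d from 0.91 and 0.80 to 0.22 and 0.38 CPM (-1.48, SE 0.43). Hist1h3c, with 0.29 and 0.72 CPM fed and 0.40 and 0.70 starved, was not called (0.18, SE 0.47), nor were Hist1h3e, Hist1h3h and Hist1h3i. In H4, Hist1h4i fell from 5.51 and 6.36 to 0.89 and 0.85 CPM (-2.77, SE 0.20). Hist1h4m fell from 0.66 and 0.70 to 0.09 and 0.17 CPM (-2.34, SE 0.54), and Hist1h4d had 18 counts fed and 3 starved, a ratio of 5.25 (95% counting interval 1.53 to 27.8), a call that was lost in 10 of the alternatives. Hist4h4 was the only member called higher, at 4.21 and 4.02 CPM fed and 6.32 and 7.71 starved (0.77, SE 0.22, adjusted p = 0.00369 by edgeR). That call was lost with DESeq2 (0.74) and without starved KO-labelled replicate 2 (0.62).

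**Figure D2:**
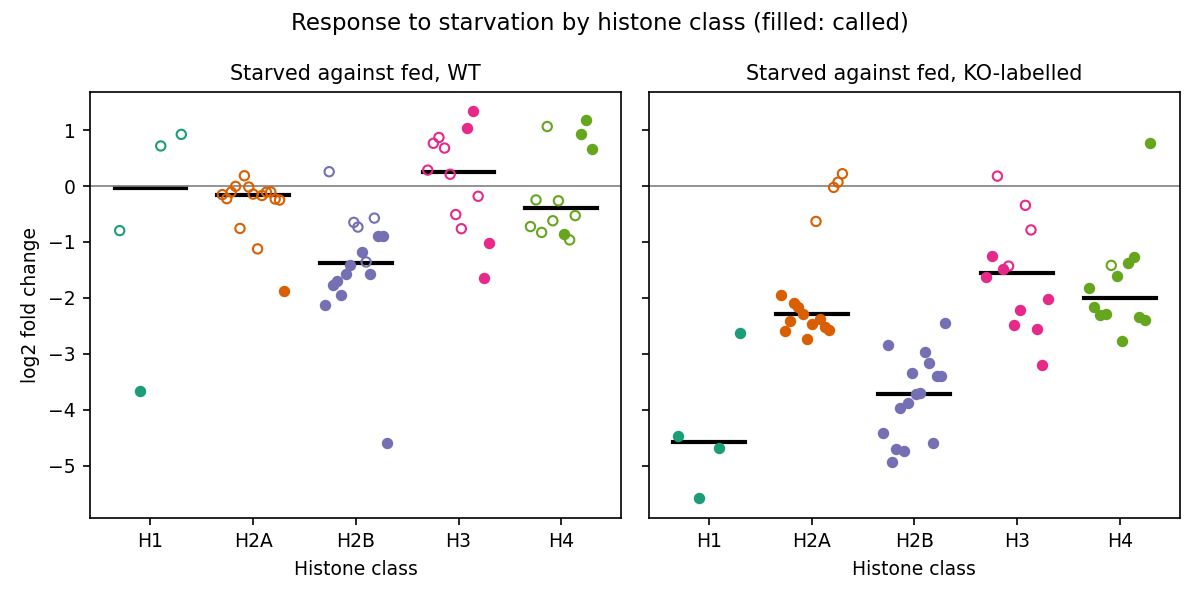
Log2 fold change of starved against fed libraries (vertical axis) for each of the 59 tested histone genes, by class (horizontal axis), in WT (left) and KO-labelled cells (right). Filled points passed an adjusted p of 0.05, bars are class medians: the H2B median is -1.38 on the left and -3.71 on the right.

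The test of the difference between the 2 responses called 39 members with a more negative response in the KO-labelled cells and 2 with a more positive one, that is 66.1% and 3.39% of those tested, against 30.4% and 34.1% over all genes. By class, the more negative calls were 4 of 4 H1, 10 of 15 H2A, 12 of 16 H2B, 8 of 12 H3 and 5 of 12 H4 genes, with class medians of -3.61, -2.20, -2.51, -1.77 and -1.41. With DESeq2 the count for H3 was 5. With library totals, which moved the median of all genes by 0.20 and the share of higher calls from 52.9% to 67.0%, 34 members were called more negative and 2 more positive. Hist1h1d had the most negative difference (-5.40, SE 0.67, adjusted p = 4.76e-07 by edgeR) and Hist1h2bp followed (-4.02, SE 0.76). With single libraries left out the value of Hist1h1d reached -6.11 (without fed WT replicate 1) and -4.80 (without starved WT replicate 2), that of Hist1h2bp -4.68 (without starved KO-labelled replicate 1) and that of Hist1h1e, -3.55 with all libraries, -5.29 and -2.71 (without starved KO-labelled replicate 1 or replicate 2). Hist1h2bc differed by -3.15 (SE 0.15), Hist1h4i by -1.91 (SE 0.26) and Hist1h1c by -1.92 (SE 0.25). For Hist1h3h the call (-1.38, SE 0.60) was lost in 9 alternatives, among them DESeq2 (-1.50), library totals (-1.18) and the fit without starved KO-labelled replicate 1 (-0.96). For Hist1h4d the call (-3.35, SE 1.23) was lost in 5, with values from -3.36 with no filter to -2.50 without starved KO-labelled replicate 1. In Hist1h1c the difference came with a higher fed level in the KO-labelled cells and like starved levels under the 2 labels. For Hist1h1b the call (-3.66, SE 1.42) was lost without starved WT replicate 1 (-1.42), fed WT replicate 2 (-3.24), fed KO-labelled replicate 1 (-3.45) or starved KO-labelled replicate 1 (-2.84).

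The 2 members with a more positive difference were Hist3h2a (2.09, SE 0.25, adjusted p = 2.53e-07 by edgeR), which fell in WT cells and was not called in KO-labelled ones, and Hist2h2be (2.14, SE 0.77), which fell under both labels and by more in WT. The call for Hist2h2be was lost with DESeq2 (2.09), without starved WT replicate 2 (1.01) and without starved KO-labelled replicate 1 (1.38). Neither gene lies in the Hist1 cluster. Hist4h4 did not pass the test of the difference with all libraries (0.11, SE 0.33). Its value rested on single starved WT libraries, being 0.60 and past the threshold without replicate 2 and -0.44 without replicate 1.

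**Figure D3:**
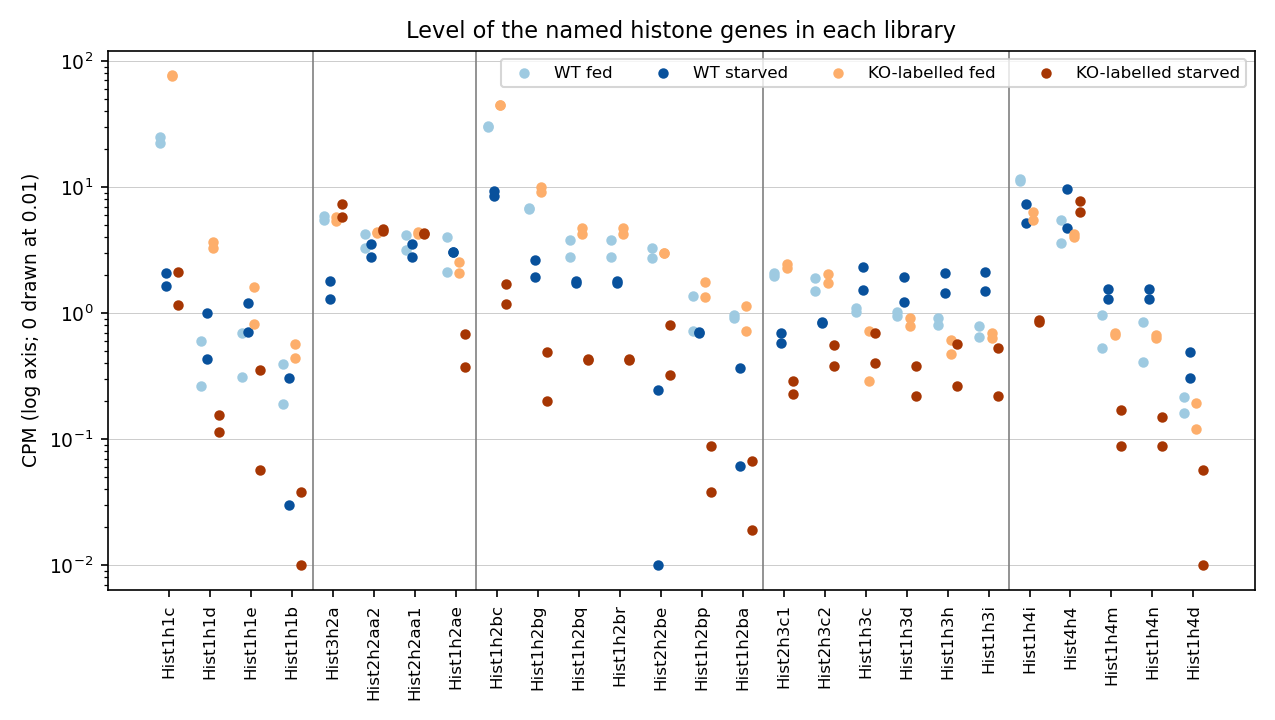
Level in CPM on a log axis (vertical) of the 26 histone genes named by rule (horizontal), with 1 point per library and colours for the 4 groups; vertical lines separate H1, H2A, H2B, H3 and H4 genes, and 0 is drawn at 0.01. Starved KO-labelled libraries (dark red) are lowest for most genes, but for Hist3h2a they sit at 5.76 and 7.27 CPM, above the starved WT ones.

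In fed cells linker genes and some H2B genes were higher in the KO-labelled libraries, and Hist1h4i and Hist1h3c were lower. Of the 59 members, 8 were higher in the KO-labelled libraries and 2 lower (13.6% and 3.39%), against 34.5% and 39.8% over all genes. The median over the members was 0.00, and -0.06 over all genes. The 8 were 3 of 4 H1 genes (75%) and 5 of 16 H2B genes, with DESeq2 2 of each. The H2B share (31.2%) was under the 34.5% over all genes. The 5 H2B genes include Hist1h2bq and Hist1h2br, which hold the same counts. Their call was lost with DESeq2 (0.49), without fed WT replicate 2 (0.25) and without fed KO-labelled replicate 1 (0.37) or replicate 2 (0.53). No H2A gene was called by edgeR or by DESeq2, 1 of 15 having an unadjusted p under 0.05 (edgeR). Hist1h1c was at 22.3 and 24.9 CPM in WT and 77.0 and 76.2 in KO-labelled libraries (1.70, SE 0.08, adjusted p = 1.06e-13 by edgeR), 3.25-fold higher. Hist1h1d was at 0.60 and 0.26 against 3.27 and 3.68 CPM (2.99, SE 0.37), and Hist1h1e at 0.69 and 0.31 against 1.62 and 0.82 CPM (1.28, SE 0.52), the last call being lost without fed KO-labelled replicate 1 (0.69), without fed WT replicate 2 (0.82), with DESeq2 (1.32) and with summed rows (1.28). The H2B differences were smaller, such as 0.55 (SE 0.07) for Hist1h2bc, at 30.6 and 30.0 against 44.5 and 44.3 CPM, and 0.49 (SE 0.15) for Hist1h2bg, the latter not called without fed KO-labelled replicate 1 (0.42). Hist1h4i was lower in the KO-labelled libraries (-0.94, SE 0.14), at 11.6 and 11.2 against 5.51 and 6.36 CPM. It was the only H4 gene called. Of the 12 tested, 11 had a log2 difference below 0 (median -0.37), as had 7786 of all 14418 genes. The 12 may hold shared reads and are not separate observations. Hist1h3c was lower as well (-1.10, SE 0.44), at 1.09 and 1.03 against 0.29 and 0.72 CPM. The call for Hist1h3c was lost with DESeq2 (-1.05), with summed rows (-1.09) and without fed KO-labelled replicate 1 (-0.56) or either fed WT replicate (-1.06 and -1.14). The number called higher was 4 with DESeq2, 3 without fed KO-labelled replicate 1, 5 without fed KO-labelled replicate 2 and 4 without fed WT replicate 2. Library totals moved the median of all genes by 0.11 and left these counts at 8 and 2.

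In starved cells, unlike in fed ones, most histone genes were lower in the KO-labelled libraries. Of the 59 members, 49 were lower and 4 higher (83.1% and 6.78%), against 37.7% and 41.9% over all genes, and the medians were -2.15 and 0.07. The class medians were alike, from -2.03 in H3 to -2.37 in H2B, and all 12 H3 genes, 14 of 16 H2B, 11 of 15 H2A, 9 of 12 H4 and 3 of 4 H1 genes were lower. The call for Hist2h3c2 (-0.86, SE 0.39) was lost in 12 alternatives, among them DESeq2 (-0.92), library totals (-0.54) and the fit without starved KO-labelled replicate 2 (-0.59), so that with DESeq2 the count for H3 was 11. Hist1h2bc was at 9.21 and 8.51 CPM in WT and 1.17 and 1.70 in KO-labelled libraries (-2.60, SE 0.14), Hist1h4i at 5.19 and 7.39 against 0.89 and 0.85 (-2.86, SE 0.21), and Hist1h2ae at 3.07 and 3.03 against 0.38 and 0.68 (-2.50, SE 0.34). In all 3 genes the labels did not overlap. Hist1h4n was at 1.57 and 1.30 CPM in WT against 0.09 and 0.15 (-3.53, SE 0.53), and Hist1h4d had 26 counts against 3, a ratio of 13.0 (95% counting interval 3.97 to 66.9). Hist1h1c, at 2.09 and 1.64 against 2.11 and 1.15 CPM, was not called (-0.22, SE 0.23). Hist1h1b had 11 counts in WT and 2 in KO-labelled libraries (ratio 8.22, 95% counting interval 1.79 to 76.3), a call lost without starved WT replicate 1 (-0.58) among other alternatives. The 4 higher genes were Hist3h2a (2.06, SE 0.19), at 1.81 and 1.30 against 7.27 and 5.76 CPM, Hist2h2be (2.14, SE 0.70), Hist2h2aa2 (0.54, SE 0.18) and Hist2h2aa1 (0.44, SE 0.19). Without starved WT replicate 2, or without starved KO-labelled replicate 1, 2 members were called higher. Hist2h2be (1.07 and 1.38) and Hist2h2aa1 (0.21 and 0.46) were not called in either case. Without starved WT replicate 2, Hist2h2aa2 was also not called (0.32) and Hist4h4, not called with all libraries, was called higher (0.51). With library totals, which moved the median of all genes by 0.32 and the share of higher calls from 52.6% to 67.4%, 44 members were lower and 4 higher.

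**Figure D4:**
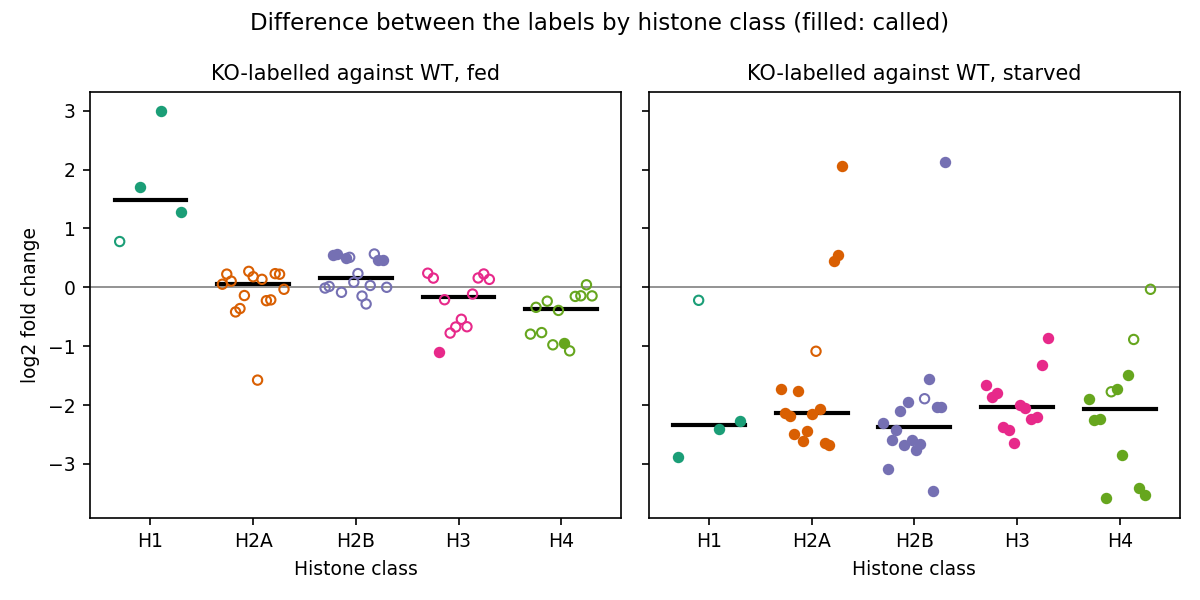
Log2 difference between KO-labelled and WT libraries (vertical axis) for each of the 59 tested histone genes, by class (horizontal axis), in fed (left) and starved cells (right); filled points passed an adjusted p of 0.05 and bars are class medians. The H1 median is 1.49 in fed and -2.34 in starved cells.

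The 4 comparisons share libraries: each fed or starved group enters 2 of them and the test of the difference uses all. Their values are given side by side for that reason and not as separate evidence. Near-identical coding sequences add a further limit. Over the 59 tested members, 30 shared 50% or more of their 50-base transcript stretches with another member, with class medians of 5.35% for H1, 79.7% for H2A, 46.9% for H2B, 57.2% for H3 and 40% for H4. The sources used here do not say how reads with several matches were counted, so the like values of the Hist1 H2A genes may hold the same reads. Hist1h1b, Hist2h2be and Hist4h4 shared no such stretch with another member. Genes other than the members were not searched.

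Many H2A and H2B genes of the Hist1 cluster sit head to head and share a promoter region. In the GRCm38 annotation 10 pairs of tested H2A and H2B genes had starts 176 to 302 bases apart. In WT cells the H2B gene of the pair had the more negative log2 fold change with starvation in 10 of 10 pairs, by a median of -0.81, and fell in 7 pairs, while the H2A genes of the pairs ran from -1.12 to 0.18 and were not called. In KO-labelled cells it was more negative in 10 of 10 pairs as well, by a median of -1.39, with the H2B gene called lower in 10 and the H2A gene in 9. The pair of Hist1h2ac and Hist1h2bc, whose starts are 251 bases apart, had -0.23 and -1.77 in WT cells, and -2.58 and -4.93 in KO-labelled ones. The difference within pairs is a description with no test, since the pairs share libraries and reads, and Hist1h2bq and Hist1h2br hold the same counts.

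**Figure D5:**
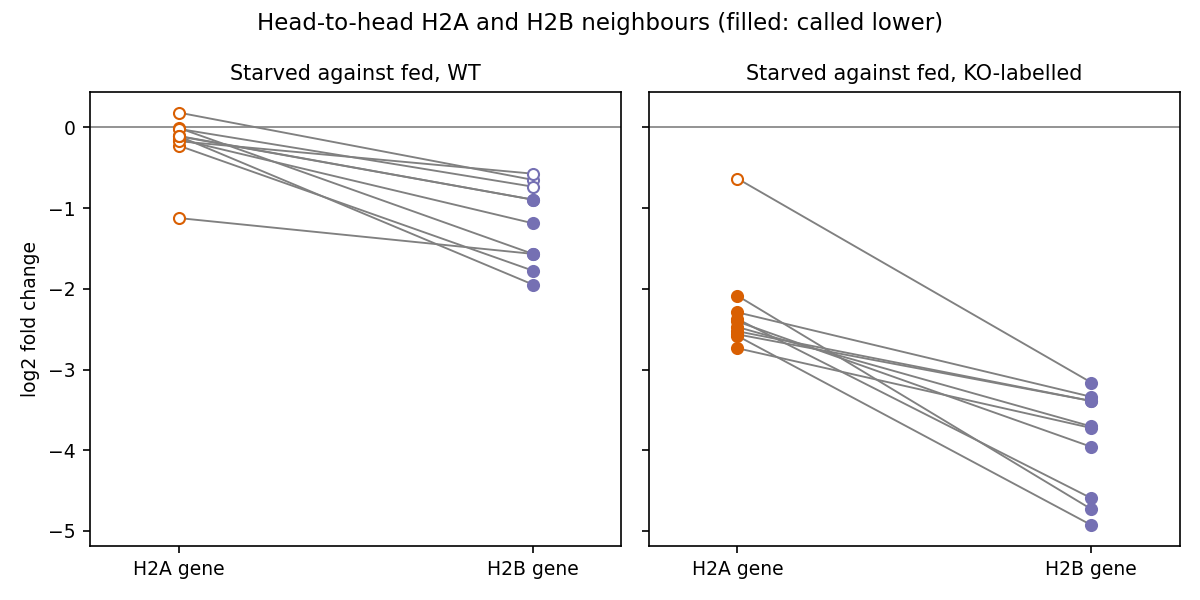
Log2 fold change of starved against fed libraries (vertical axis) for the H2A and the H2B gene (horizontal axis) of 10 head-to-head pairs, joined by lines, in WT (left) and KO-labelled cells (right). Filled points were called lower; every line slopes down, and all but 1 of the H2A genes on the right lie below -2.

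Promoters are shown for Hist1h1c and Hist1h2bg, which fell under both labels, and for Hist3h2a and Hist4h4, which were not called lower in KO-labelled cells. RefSeq (GRCm38.p6) gave a promoter for 62 of the 68 members, from 250 bases before to 50 after the start, and the 250 bases upstream are printed. Capitals mark matches on either strand to 4 motifs, none of which overlap here. The TATA box was searched as TATAAA and the box bound by NF-Y as CCAAT. The core of the octamer motif was searched as ATTTGCA, and the H1 box as AAACACA.
Hist1h1c, chr13:23738557-23738806, plus strand: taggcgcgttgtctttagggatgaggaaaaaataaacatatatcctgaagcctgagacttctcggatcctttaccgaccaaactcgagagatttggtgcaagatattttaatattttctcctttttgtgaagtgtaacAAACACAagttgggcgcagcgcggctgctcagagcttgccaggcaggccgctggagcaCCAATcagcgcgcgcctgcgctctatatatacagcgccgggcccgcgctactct
Hist1h2bg, chr13:23571150-23571399, plus strand: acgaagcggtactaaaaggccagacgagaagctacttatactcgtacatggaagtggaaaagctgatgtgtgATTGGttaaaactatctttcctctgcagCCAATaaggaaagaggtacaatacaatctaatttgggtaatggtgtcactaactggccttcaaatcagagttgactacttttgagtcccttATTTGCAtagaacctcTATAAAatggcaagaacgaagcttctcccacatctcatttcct
Hist3h2a, chr11:58954435-58954684, plus strand: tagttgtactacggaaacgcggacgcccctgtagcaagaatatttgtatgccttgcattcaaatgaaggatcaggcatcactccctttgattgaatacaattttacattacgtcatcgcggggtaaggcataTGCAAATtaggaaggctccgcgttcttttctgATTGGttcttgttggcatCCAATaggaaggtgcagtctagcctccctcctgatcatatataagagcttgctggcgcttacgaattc
Hist4h4, chr6:136804432-136804681, minus strand: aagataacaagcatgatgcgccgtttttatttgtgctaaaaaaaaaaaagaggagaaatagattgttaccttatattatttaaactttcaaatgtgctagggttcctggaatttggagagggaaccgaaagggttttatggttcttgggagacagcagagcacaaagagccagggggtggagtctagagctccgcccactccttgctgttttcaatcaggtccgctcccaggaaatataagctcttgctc
In Hist1h1c the H1 box began 112 bases and the CCAAT box 54 bases upstream of the start. Hist1h2bg held a TATA box at 43 bases and an octamer core at 59, with CCAAT at 150 and, on the opposite strand, at 178. Hist3h2a had CCAAT at 68 and, on the opposite strand, at 86, and the octamer core on the opposite strand at 118, so it shared 2 of the 3 kinds of match with Hist1h2bg. No match was found in the printed bases of Hist4h4. Over the whole 300-base windows CCAAT was found in 53 of 62 member promoters against 37.4% of all promoters of that length, in every H1, H2A, H2B and H3 promoter but in only 3 of 12 of H4. TATAAA was found in 35 of 62 (13.6% of all promoters), ATTTGCA in 13 of 62, 7 of H2A and 6 of H2B genes (4.02% of all promoters), and AAACACA in 9 of 62, 5 of them among the 6 H1 genes (7.18% of all promoters). The windows of head-to-head neighbours can overlap, and both strands were searched, so the same site can be counted for both genes. The member promoters are thus not all separate. A match is a string of letters and not a shown binding site.

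Most of the listed histones coded outside the clusters fell with starvation as well. Of the 11 tested, 10 fell and 1 rose in WT, and 10 fell in KO-labelled cells, that is 90.9% lower under each label against 44.8% and 40.3% over all genes. The medians were -1.56 and -0.88, against -0.17 and -0.02 over all genes. H3f3a, which codes for H3.3, was at 251 and 247 CPM fed and 84.6 and 83.9 starved in WT, and at 399 and 388 fed and 211 and 217 starved in KO-labelled libraries (-1.56 and -0.88). H2afx, the H2A.X gene, was at 117 and 115 CPM fed and 17.1 and 18.8 starved in WT against 168 and 169 fed and 59.1 and 59.4 starved in KO-labelled libraries (-2.70 and -1.51), and H1f0, the linker histone of resting cells, was at 152 and 150, 22.9 and 24.0, 123 and 127, and 77.1 and 76.1 CPM in that order. In these 3 genes the decrease was larger in WT than in KO-labelled cells (differences of 0.68, 1.19 and 1.98 in the test of the difference), the opposite sign of most canonical members. The 11 as a set went both ways in that test, with 4 more positive and 3 more negative (36.4% and 27.3%). Those shares are near the 34.1% and 30.4% over all genes. Cenpa, the centromeric H3, had a larger decrease in the KO-labelled cells (-1.60 and -2.61, difference -1.01, SE 0.07). H2afz (-0.71 and -0.63) and H3f3b (-0.45 and -0.45) fell under both labels and did not pass the test of the difference with all libraries. H2afz passed it with library totals (0.28) and without fed WT replicate 1 (0.13). H3f3b passed it with a positive sign with library totals (0.20) and with a negative one without starved WT replicate 1 (-0.095) or replicate 2 (-0.17), so its direction depends on the setting.

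Genes that make or handle histone mRNA moved in both directions. Of 33 tested, 13 rose and 15 fell in WT (39.4% and 45.5%), and 14 rose and 16 fell in KO-labelled cells (42.4% and 48.5%). These shares lie near those over all genes, which were 36.7% and 44.8% in WT and 39.4% and 40.3% in KO-labelled cells. Slbp, the stem-loop binding protein, was at 88.1 and 92.1 CPM fed and 74.3 and 71.6 starved in WT and at 90.4 and 89.2 fed and 69.5 and 69.8 starved in KO-labelled libraries (-0.30 and -0.37), and the 2 changes did not pass the test of their difference (-0.06, SE 0.06). That difference passed at 0.14 with library totals, and at -0.16 and -0.22 without starved WT replicate 1 or replicate 2. Npat, the coactivator of histone transcription, rose from 45.6 and 45.0 to 82.8 and 82.0 CPM in WT and from 48.1 and 46.0 to 65.0 and 66.3 CPM in KO-labelled cells (difference -0.38, SE 0.06). Srrt, a cap-binding partner in the processing of RNAs without poly(A) tails, was at 163 and 159 CPM fed and 165 and 172 starved in WT, and fell from 163 and 165 to 48.3 and 47.7 CPM in KO-labelled cells (difference -1.84). Of the 33, 10 were called more positive and 12 more negative in the test of the difference (30.3% and 36.4%). These lie near the 34.1% and 30.4% over all genes.

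Histone chaperones and partners of new histones were called 13 higher and 8 lower of 28 in WT (46.4% and 28.6%) and 10 higher and 13 lower in KO-labelled cells (35.7% and 46.4%), the latter near the shares over all genes. The test of the difference called 18 of the 28 more negative in the KO-labelled cells and 7 more positive (64.3% and 25%). Over all genes these shares were 30.4% and 34.1%. The median difference was -0.31 over this list and -2.08 over the canonical members. Asf1b, the chaperone of new H3 and H4 in dividing cells, fell from 37.5 and 39.7 to 9.03 and 9.90 CPM in WT and from 47.4 and 44.8 to 16.9 and 17.3 CPM in KO-labelled cells. Of 41 S-phase genes, 27 fell and 10 rose in WT (65.9% and 24.4%, median -0.45), and 26 fell and 8 rose in KO-labelled cells (63.4% and 19.5%, median -0.30), where 44.8% and 40.3% of all genes fell. In the test of the difference 17 S-phase genes were called more positive and 14 more negative in the KO-labelled cells (41.5% and 34.1%), near the 34.1% and 30.4% over all genes. Ccne1, cyclin E1, fell under both labels (-1.63 and -1.71) and did not pass the test of the difference (-0.08, SE 0.10), while Rrm2, a subunit of ribonucleotide reductase, was at 145 and 152 CPM fed and 35.5 and 33.3 starved in WT and at 428 and 425 fed and 103 and 103 starved in KO-labelled libraries. Pcna, the sliding clamp of DNA replication, was at 242 to 307 CPM in all 8 libraries.

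Among 19 RNAs in the table that were listed as lacking a poly(A) tail, 5 passed the filter, and only Malat1 and Neat1 had more than 1 CPM. Malat1 and the long form of Neat1 end in a processed triple helix, and the forms of Neat1 were not told apart here. Malat1 rose with starvation under both labels (0.59 and 1.25), while Neat1 fell in WT (-0.70) and rose in KO-labelled cells (0.32). The small RNAs Rpph1, Rnu73b and Snord17 were at most 0.574 CPM in any library, with no call for starvation under either label. The part of RNA selection in the histone levels was not tested.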

How the data were processed

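The table of 31055 rows that the authors deposited holds raw counts of reads, 1 row per RefSeq transcript with its gene symbol. TopHat2 2.0.9, bedtools and build mm9 are listed in the submitters' processing notes, without roles. The sources used here do not give the library kit, strand, any selection of poly(A) RNA or the counting of reads with several matches. A further 4 columns matched no labelled sample and were not used. Groups came from the sample titles. For each symbol the row with the highest total was kept, and the counts were fitted over all 8 libraries with edgeR 4.0.16 in R 4.3.3 (TMM, filterByExpr, quasi-likelihood F test, 1 coefficient per group, 4 residual degrees of freedom), with Benjamini-Hochberg adjustment over 14418 genes and a threshold of 0.05. CPM uses the TMM library sizes, in which 3 counts are 0.0486 to 0.0921 CPM. SE is the log2 fold change divided by the square root of F. The script was tested on simulated data. Counting intervals are 95% and cover counting error only.

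Named members are the up to 4 with the highest mean CPM in each class and, in each comparison, the 3 called with the largest rise and the 3 with the largest fall. Hist1h2ab, Hist1h2ac, Hist1h2af, Hist1h2ag, Hist1h2ah, Hist1h2ak and Hist1h3e were named as the ends of ranges, exceptions or part of a pair, after their values were seen. From the lists of related genes and markers, the 4 with most CPM, the largest change and a few fixed genes could be named. Thy1, Sox10 and Snap25 were named outside this rule. Members, lists and tests were chosen with earlier results of these data known. The germ cell markers summed to 3.29 and 2.18 CPM in fed WT, 1.57 and 1.09 in starved WT, 2.11 and 1.67 in fed KO-labelled and 1.57 and 1.19 in starved KO-labelled libraries. Sequences came from GENCODE M21, by gene symbol, and from RefSeq (GRCm38.p6), by the transcript of the count row. Both are on another build than the counts, and 67 of 68 members were matched in RefSeq. The alternatives were DESeq2 1.42.0, library totals, 2 other filters, summed rows, the compared groups alone, the replicate number as a block and each library left out.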

Additional observations from a re-analysis of the deposited data

Results flagged for a closer look

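For the genes below, the response to starvation differed between the labels by the test of that difference (edgeR's quasi-likelihood test, adjusted over all genes), and the values are log2 differences, KO-labelled minus WT. The same test called 34.1% of all genes more positive and 30.4% more negative, so a call here is common.

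Among the linker genes the response in KO-labelled cells was more negative in Hist1h1b (-3.66), Hist1h1c (-1.92), Hist1h1d (-5.40) and Hist1h1e (-3.55). Among the core genes of H2A and H2B it was more negative in Hist1h2ae (-2.08), Hist1h2bc (-3.15), Hist1h2bg (-3.16), Hist1h2bp (-4.02) and in Hist1h2bq and Hist1h2br (-2.50 and -2.50, the same counts). Among H3 genes it was more negative in Hist1h3d (-2.16), Hist1h3h (-1.38), Hist1h3i (-2.12) and Hist2h3c1 (-1.54), and among H4 genes in Hist1h4d (-3.35), Hist1h4i (-1.91), Hist1h4m (-3.27) and Hist1h4n (-3.57). The call for Hist1h3h was lost in 9 alternatives, that for Hist1h4d in 5 and that for Hist1h1b in 4. The response was more positive in Hist2h2be (2.14, lost in 3 alternatives) and Hist3h2a (2.09).

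Outside the canonical genes the response was more negative in Npat (-0.38), Cenpa (-1.01) and Kdm3a itself (-1.43), and more positive in H2afx (1.19), H3f3a (0.68) and H1f0 (1.98).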

How the results depend on the processing

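With 2 libraries a group, low counts in single genes and reads that may be shared between near-identical genes limit the calls, and a lone library left in an arm is assumed to vary like the other groups. The number of members called moved by more than 1.5 times as follows. With DESeq2 the members called higher were 3 (WT starvation), 0 (KO-labelled starvation), 4 (labels, fed) and 1 (difference of responses), and those called lower in fed cells were 1. Library totals gave 1 higher and 25 lower in WT starvation. A filter of at least 5 CPM in 2 libraries left 10 members to test, and gave 1 higher and 7 lower in WT starvation, 6 lower in KO-labelled starvation, 5 higher and 1 lower between the labels in fed cells, 5 lower in starved cells, and 1 higher and 6 lower in the difference of responses. Members called lower between the labels in fed cells were 1 with summed rows and 4 with the compared groups alone, which could not be used for the difference of responses.

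Leaving out each library in turn gave, for higher and lower members, 1 to 8 and 14 to 16 in WT starvation, 0 to 1 and 41 to 49 in KO-labelled starvation, 3 to 8 and 2 to 3 between the labels in fed cells, 2 to 4 and 40 to 47 in starved cells, and 1 to 2 and 30 to 39 in the difference. The lone higher member of KO-labelled starvation, Hist4h4, was lost without starved KO-labelled replicate 2, and 1 of the 2 higher members of the difference without starved KO-labelled replicate 1. The difference of Hist4h4 between the labels in starved cells was -0.53 without starved WT replicate 1 and 0.51 without starved WT replicate 2.

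The replicate numbers did not pair the libraries (correlations of deviations from -0.03 to 0.02). With the number as a replicate block the members called higher and lower were 4 and 16, 1 and 47, 8 and 2, 4 and 45, and 2 and 36 in the same order of comparisons.

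Library totals reversed the sign of small differences between the labels. Slbp went to 0.11 (fed), 0.25 (starved) and 0.14 (difference of responses), H2afz to 0.14 (starved), and H3f3b to 0.077 (fed), 0.27 (starved) and 0.20 (difference of responses). On that scale the median of all genes shifted by 0.11, 0.32 and 0.20 in these comparisons. Over the named histone genes, 1655 values in the alternatives kept their side of the threshold and their direction, 107 lost the call, 21 gained it, and 54 changed sign with no call in either fit. The cause of the other changes was not tested.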
